A study of Rattus norvegicus with 16 samples.

Results

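The genes of leukotriene synthesis and the leukotriene receptors were followed in the lungs and the adipose tissue of rats with allergic airway inflammation. They were 10 genes out of the 16678 gene symbols on the array, chosen by name from the pathway, and each was measured by 1 probe whose RefSeq transcript maps to the symbol. Gene expression was measured on 16 arrays, 1 for each tissue of each rat, in male Brown Norway rats that entered the treatment at 7 weeks of age. In the 5 HDM rats the allergen was house dust mite (HDM). Sensitization took 3 weeks, with a weekly dose of 45 µg under the skin and aluminum hydroxide as the adjuvant, and the challenge that followed was through the nose, at 120 µg a dose and 3 doses a week for another 3 weeks. In the 3 control rats saline took the place of HDM in both phases, so both groups carried the adjuvant. The arrays were 1-color Agilent rat arrays hybridized with Cy3-labeled RNA, and the depot of the adipose tissue is not given in the sources used here. Lung and adipose arrays were assigned to a rat by the group and number in their labels.

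Leukotrienes are lipid mediators made from arachidonic acid, mostly by leukocytes. Phospholipases free arachidonic acid from membranes, 5-lipoxygenase (Alox5) with its activating protein FLAP (Alox5ap) turns it into LTA4, and LTA4 becomes LTB4 through LTA4 hydrolase (Lta4h) or LTC4 through LTC4 synthase (Ltc4s). LTB4 attracts neutrophils and other leukocytes through its receptors Ltb4r and Ltb4r2. LTC4 and the products cleaved from it, the cysteinyl leukotrienes, constrict airways and raise vascular permeability through Cysltr1 and Cysltr2, and they are a drug target in asthma. Alox12 and Alox15 place oxygen at other positions of the fatty acid and feed other lipid mediators.

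All levels below are log2 signals relative to the 75th percentile of the array, so 0 is the 75th percentile and 1 unit is a doubling. Each probe has its own binding strength, and levels were compared only for the same probe. Where the brightest probe of a marker list is named, it says only which probe the summed signal mostly rests on. Within each tissue limma was fitted to HDM against control rats, with Benjamini–Hochberg adjustment across the 45598 probes of the array, and a gene was called at an adjusted p below 0.05 and a fold change above 1.5. Exact permutation tests were two-sided, there are 56 splits of 8 rats into groups of 5 and 3, and the smallest p they can give is 0.0179. Precision is limited by the number of arrays. The 75th percentile itself was a signal of 376 to 488 on the lung arrays and of 111 to 240 on the adipose arrays. A probe is described as well above background where Feature Extraction marked it so.

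The tissues were checked against their markers. All 6 genes of the lung epithelium list were well above background on all 8 lung arrays, and the list summed to 1357 to 1651 times the 75th percentile there against 1.70 to 2.65 times in adipose tissue. All 7 adipocyte genes were well above background on all 8 adipose arrays, with sums of 913 to 1575 against 12.9 to 27.7 in lung. The adipose arrays of HDM rat 1 and control rat 1 stood apart. A list of 9 epididymis genes, whose brightest probe was that of Lcn5, summed to 3827 in HDM rat 1, 4279 in control rat 1 and 39.8 in control rat 3, and to between 0.201 and 4.30 in the other adipose samples. Adipose differences of the leukotriene genes and of the marker genes named are therefore given with and without these 2 rats. Cysltr2 and Ltb4r2, not well above background on any adipose array, are left out of this. Marker sums are given rat by rat or with these 2 rats named.

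In the lungs, no gene of the group was called. The 2 genes with the clearest separation were both higher in HDM rats, Alox5ap by 0.73 and Ltb4r by 1.11 on the log2 scale. Alox5, Lta4h and Ltc4s, the enzymes that act with or after FLAP, overlapped between the groups. Of all probes, 0.855% were called in lung, 0.482% as higher in HDM rats and 0.373% as lower. With an unadjusted p below 0.05, 2 of the 10 genes remained (10.2% of all probes). The methods' t-test called 0 after Benjamini–Hochberg adjustment across all probes and passed 2 before it. The paper reports a cut at its fold-change threshold ahead of its count of changed genes. With limma adjusted only over probes past 1.5-fold, 1329 probes were called, and 2 of the 10 genes, Alox5ap and Ltb4r. Signal was higher in HDM rats for 8 of 10 genes (50.7% of all probes), with a median change of 0.21 against 0.0028 for all probes, and for 6 to 9 of 10 in the alternatives that measured all 10. Groups did not overlap for 2 of 10 genes (9.61% of all probes), both higher in HDM rats (4.65% of all probes, and 4.97% lower). In whole tissue, a change in the number of cells that express a gene and a change in RNA per cell cannot be told apart.

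**Figure D1:**
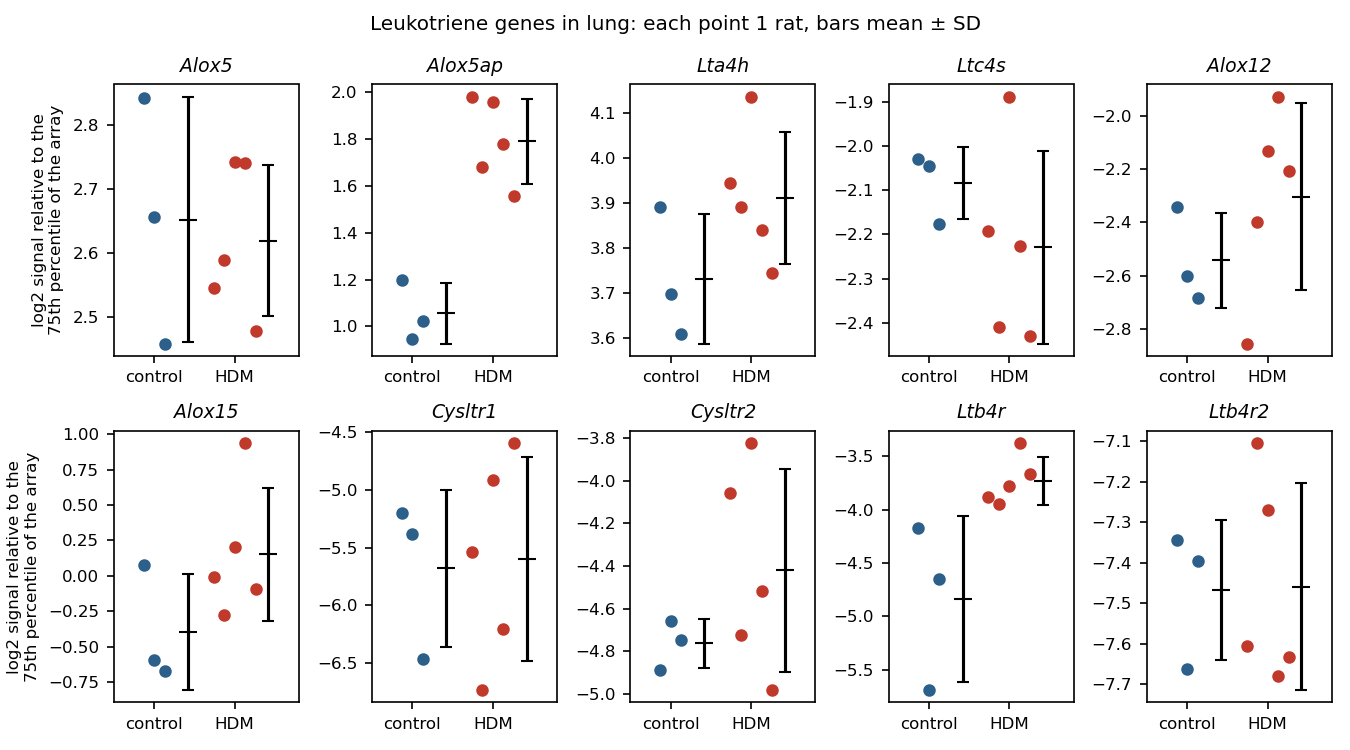
Log2 signal of each of the 10 leukotriene genes in lung (vertical axis, relative to the 75th percentile of the array, a separate scale in each panel) for control and HDM rats, with 1 point per rat and the mean ± SD beside the points. The 5 HDM rats lie above all 3 control rats for Alox5ap (1.56 to 1.98 against 0.95 to 1.20) and Ltb4r (-3.95 to -3.38 against -5.69 to -4.17), and the groups overlap in the other panels.

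Alox5ap encodes FLAP, the membrane protein that presents arachidonic acid to 5-lipoxygenase, and lies at chr12:10785254-10809295 (GRCr8). Its lung signal was 1.98, 1.68, 1.95, 1.78 and 1.56 in HDM rats 1 to 5 and 1.20, 0.95 and 1.03 in control rats 1 to 3. The lowest HDM rat was above the highest control rat. The means were 1.79 ± 0.18 (SD, n = 5) and 1.06 ± 0.13 (SD, n = 3), a difference of 0.73 (SE 0.13) or 1.66-fold, with an adjusted p of 0.0594 in limma and an exact permutation p of 0.0179. The fold threshold was passed and the p threshold was not. The adjusted p ranged from 0.00578 to 0.813 over 24 alternative settings and was below 0.05 in 6 of them.

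Alox5, at chr4:151203948-151251126, encodes 5-lipoxygenase itself. Its lung signal was 2.55, 2.59, 2.74, 2.74 and 2.48 in HDM rats and 2.84, 2.66 and 2.46 in control rats, so that the highest and the lowest values both belonged to control rats. The difference was -0.033 (SE 0.13, adjusted p of 1.00 in limma).

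Lta4h, at chr7:29856846-29888642, hydrolyzes LTA4 to LTB4. Its lung signal was 3.95, 3.89, 4.14, 3.84 and 3.74 in HDM rats and 3.89, 3.70 and 3.61 in control rats. Control rat 1 lay within the range of the HDM rats, and the difference of 0.18 (SE 0.12) had an adjusted p of 0.774. Ltc4s, at chr10:35060002-35066466, joins LTA4 to glutathione and so makes LTC4. Its lung signal was -2.19, -2.41, -1.89, -2.23 and -2.43 in HDM rats and -2.03, -2.05 and -2.18 in control rats. The control rats lay inside the HDM range, and the difference was -0.15 (SE 0.14, adjusted p of 0.888).

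The other lipoxygenases of the group are neighbors on chromosome 10, Alox12 at chr10:55456923-55469239 and Alox15 at chr10:55559060-55567535. Alox12, the platelet-type enzyme, had a lung signal of -2.86, -2.40, -2.13, -1.93 and -2.20 in HDM rats and -2.34, -2.60 and -2.68 in control rats, a difference of 0.24 (adjusted p of 0.861). Alox15 was at -0.01, -0.28, 0.20, 0.94 and -0.09 in HDM rats and at 0.08, -0.59 and -0.67 in control rats. HDM rat 4 was the highest, control rat 1 lay among the other HDM rats, and the difference of 0.55 (SE 0.30) had an adjusted p of 0.648. Both groups overlapped for both genes.

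The LTB4 receptors lie next to each other on chromosome 15, the low-affinity receptor Ltb4r2 at chr15:33228634-33230453 and the high-affinity receptor Ltb4r at chr15:33233120-33235636. The lung signal of Ltb4r was -3.88, -3.95, -3.78, -3.38 and -3.67 in HDM rats and -4.17, -5.69 and -4.65 in control rats. All HDM rats were above all control rats, and the control rats were the more spread group, with control rat 2 the lowest. The means were -3.73 ± 0.22 (SD, n = 5) and -4.84 ± 0.78 (SD, n = 3). The difference was 1.11 (SE 0.32), or 2.15-fold, with an adjusted p of 0.226 in limma and an exact permutation p of 0.0179. The probe was dim, well above background in 5 of 5 HDM rats and 2 of 3 control rats, and the difference was 0.68 without control rat 2 and 0.16 after normexp background correction with quantile normalization. Ltb4r2 was well above background on 0 of the 16 arrays, with lung signals of -7.68 to -7.11 that overlapped between the groups.

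The cysteinyl leukotriene receptors were dim as well. Cysltr1, at chrX:75734281-75762873, is the receptor that antagonists used in asthma block. Its lung signal was well above background in 2 of 5 HDM rats and in 0 of 3 control rats, and the values of both groups ran together (-6.73 to -4.60 in HDM rats, -6.46 to -5.20 in control rats). Cysltr2, at chr15:54599043-54638314, was well above background on all 8 lung arrays, at -4.06, -4.72, -3.82, -4.52 and -4.98 in HDM rats and -4.89, -4.66 and -4.75 in control rats. HDM rat 5 was below and HDM rats 1, 3 and 4 were above all control rats, and the difference was 0.34 (SE 0.26, adjusted p of 0.816).

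HDM rats 1 to 4 were hybridized in row 1 of the lung slide, and row 2 held HDM rat 5 together with the control rats. Within row 2, HDM rat 5 was above all 3 control rats for Alox5ap (1.56 against 0.95 to 1.20) and for Ltb4r (-3.67 against -5.69 to -4.17). With the row as a block, the difference was 0.50 (SE 0.20, adjusted p of 0.684 in limma) for Alox5ap and 1.17 (SE 0.54, adjusted p of 0.743) for Ltb4r. Row 1 held no control rat.

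Markers of leukocytes, cells that carry leukotriene genes, were examined in the same lungs, and the neutrophil, eosinophil and B cell sums separated the groups as Alox5ap and Ltb4r did. Of 13 neutrophil genes 12 were measured, and 6 were called, all higher in HDM rats: S100a8 (4.46), S100a9 (4.09), Mmp8 (3.95), Mmp9 (3.23), Cxcr2 (2.46) and Csf3r (2.18), as log2 differences. The list, whose brightest probe was that of S100a9, summed to 243, 177, 312, 206 and 160 times the 75th percentile in HDM rats and to 47.5, 25.9 and 23.6 in control rats, while Elane and Ltf were well above background in none of the 8 lungs. All 6 eosinophil genes had higher means in HDM rats, 1 of them was called (Siglec5, 0.97, adjusted p of 0.0425 in limma), and the sums were 2.19 to 4.00 against 0.95 to 1.40. The probe of Siglec5 was the brightest of that list, Prg3 differed by 2.73 (adjusted p of 0.0581) and Il5ra was not well above background. The probe of Prg3 was well above background in 5 of 5 HDM rats and 0 of 3 control rats, so the size of its difference is not exact. The 9 macrophage genes, with Lyz2 the brightest probe, held 0 called genes and summed to 437 to 587 in HDM rats and 483 to 553 in control rats. The 9 measured mast cell genes, with Hdc the brightest probe, held 0 called genes and summed to 11.2 to 14.9 against 8.07 to 11.4, and the 3 measured platelet genes, with Pf4 the brightest probe, held 0 and overlapped in their sums. The 4 measured B cell genes, with Cd79b the brightest probe, held 0 called genes and summed to 5.10 to 6.37 in HDM rats against 4.46 to 4.93, with Cd79b differing by 0.56 (adjusted p of 0.0715). The 6 T cell genes, with Cd3d the brightest probe, held 0 and summed to 10.1 to 12.9 against 10.7 to 11.6. The part of these cells in the signal of Alox5ap and Ltb4r was not tested.

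**Figure D2:**
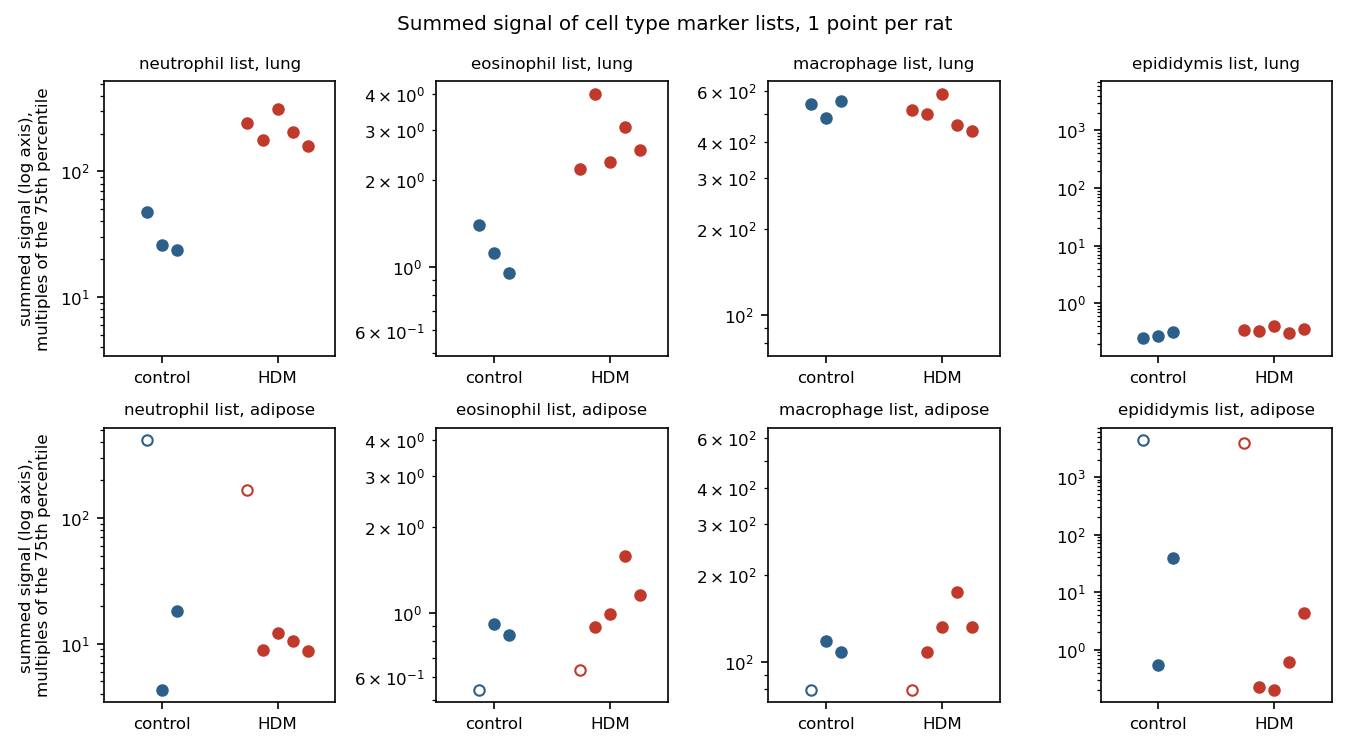
Summed signal of the neutrophil, eosinophil, macrophage and epididymis marker lists (vertical axis, multiples of the 75th percentile of the array, log scale) in lung (top) and adipose tissue (bottom) for control and HDM rats, 1 point per rat, with HDM rat 1 and control rat 1 as open points in adipose tissue. In lung the neutrophil sums are 160 to 312 in HDM rats and 23.6 to 47.5 in control rats, while in adipose tissue the open points stand at 3827 and 4279 on the epididymis list.

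In adipose tissue, no gene of the group was called, and none separated all HDM rats from all control rats. The synthesis genes Alox5, Alox5ap and Ltc4s had the largest positive differences, 0.94, 0.79 and 0.93, and HDM rat 1 and control rat 1 were the lowest rats of their groups for each. Without control rat 1 alone the differences were 0.47, 0.42 and 0.56. No probe at all was called in adipose tissue (0% of all probes), where the smallest adjusted p was 0.0853. With an unadjusted p below 0.05 the count was 0 of 10 genes (9.9% of all probes), and the methods' t-test, adjusted across all probes, also called 0. With limma adjusted only over probes past 1.5-fold, 28 probes were called and 0 of the 10 genes. Signal was higher in HDM rats for 4 of 10 genes (35.8% of all probes), but for 9 of 10 with arrays scaled to their medians or quantile normalized and for 8 of 10 after normexp. Groups did not overlap for 0 of 10 genes (6.26% of all probes, 1.54% higher and 4.72% lower in HDM rats). The median change of the 10 genes was -0.0038 and that of all probes was -0.15. The median of all probes moved to 0.14 when the arrays were scaled to their medians and to 0.03 after quantile normalization, so adipose changes are read beside it.

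**Figure D3:**
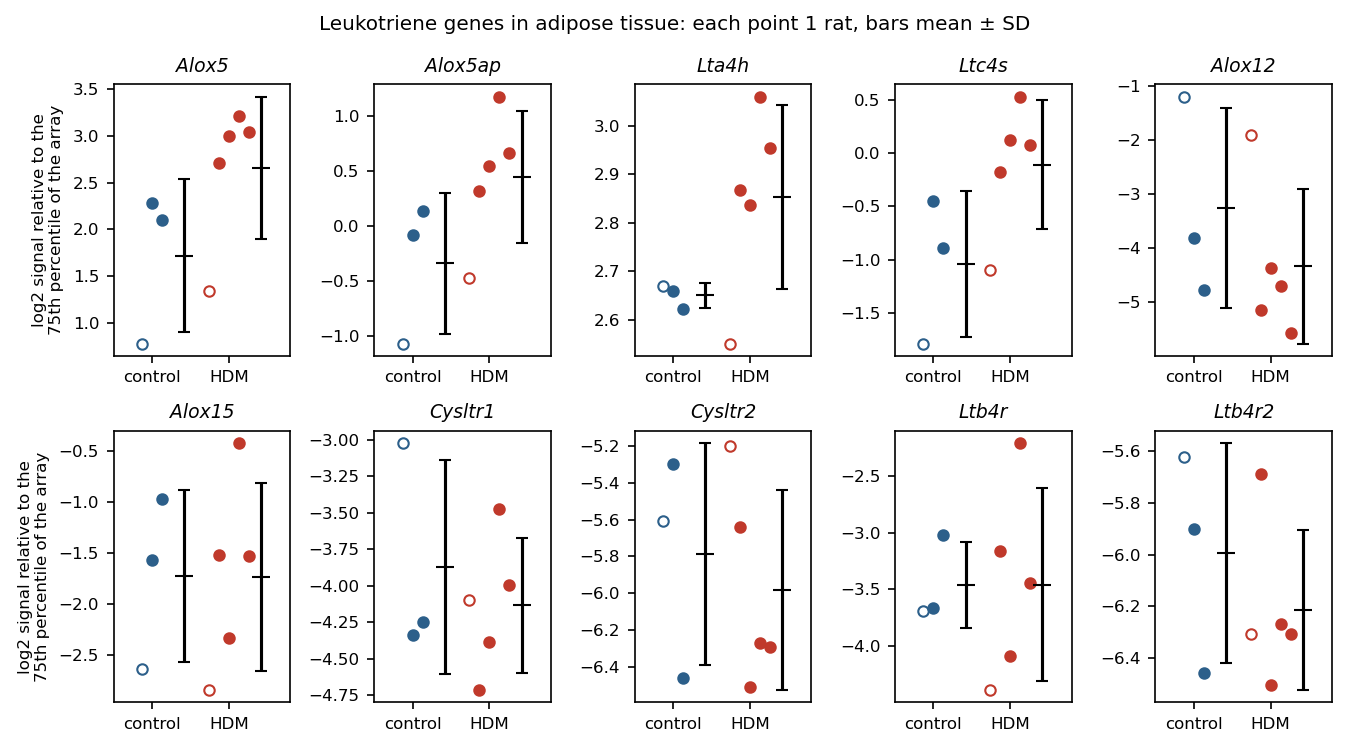
Log2 signal of the 10 leukotriene genes in adipose tissue (vertical axis, relative to the 75th percentile of the array, a separate scale in each panel) for control and HDM rats, 1 point per rat with mean ± SD, and with HDM rat 1 and control rat 1 as open points. For Alox5 the open points are 1.33 and 0.78, while the other HDM rats lie at 2.70 to 3.21 and the other control rats at 2.10 to 2.28.

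Alox5 had an adipose signal of 1.33, 2.70, 3.00, 3.21 and 3.04 in HDM rats 1 to 5 and of 0.78, 2.28 and 2.10 in control rats 1 to 3. The difference over all rats was 0.94 (SE 0.51, adjusted p of 0.605 in limma). Without rats 1, the 4 HDM rats (2.70 to 3.21) lay above the 2 control rats (2.10 to 2.28), and the difference was 0.80 (SE 0.19, adjusted p of 0.525). Alox5ap was at -0.48, 0.32, 0.55, 1.18 and 0.67 in HDM rats and at -1.07, -0.08 and 0.14 in control rats, a difference of 0.79 (SE 0.41, adjusted p of 0.585). Without rats 1 its ranges were 0.32 to 1.18 and -0.08 to 0.14, again apart, with a difference of 0.65 (adjusted p of 0.736).

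Ltc4s had an adipose signal of -1.09, -0.18, 0.13, 0.53 and 0.07 in HDM rats and of -1.79, -0.45 and -0.89 in control rats, a difference of 0.93 (SE 0.42, adjusted p of 0.521). Lta4h was at 2.55, 2.87, 2.84, 3.06 and 2.95 in HDM rats and at 2.67, 2.66 and 2.62 in control rats, a difference of 0.20 (SE 0.16, adjusted p of 0.748). For Lta4h HDM rat 1 was the lowest of all 8 rats and the other HDM rats were the highest. Without rats 1 the differences were 0.81 for Ltc4s (adjusted p of 0.622) and 0.29 for Lta4h (adjusted p of 0.797), and neither gene overlapped between the groups. The 4 genes that turn arachidonic acid into LTB4 and LTC4 were thus those of the 10 whose 4 remaining HDM rats were above both remaining control rats, while 5.71% of all probes were so and 15.7% separated the groups in either direction. Control rat 3, 1 of the 2 control rats left, still summed to 39.8 on the epididymis list, against 0.201 to 4.30 in HDM rats 2 to 5. Its part in this separation was not tested. None was called.

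Alox12 and the receptors gave little signal in adipose tissue, and Alox15 did not separate the groups. Alox15 was well above background on all 8 adipose arrays, at -2.84, -1.52, -2.34, -0.42 and -1.53 in HDM rats and -2.64, -1.57 and -0.96 in control rats, with HDM rat 4 the highest and rats 1 the lowest of each group, and the difference was -0.0074, or -0.19 without rats 1. Alox12 was well above background only in HDM rat 1 (-1.91) and control rat 1 (-1.20), and the other 6 rats were at -5.57 to -3.81, a difference of -1.08 over all rats and -0.66 without rats 1. Ltb4r was well above background in 4 of 5 HDM rats and 1 of 3 control rats and had the same mean of -3.46 in both groups, with SDs of 0.85 and 0.38, and differed by 0.12 without rats 1. Cysltr1 was well above background in 2 rats of each group, at -4.72 to -3.48 in HDM rats and -4.34 to -3.03 in control rats, with a difference of -0.26 over all rats and 0.15 without rats 1. Cysltr2 was well above background on none of the 8 adipose arrays.

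The rows of the adipose slide held the same rats as those of the lung slide. With the row as a block, 0 of the 10 genes were called in adipose tissue, and the differences were 1.32 for Alox5, 1.01 for Alox5ap, 1.11 for Ltc4s and 0.30 for Lta4h. Within row 2, HDM rat 5 was above all 3 control rats for each of these 4 genes.

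Macrophage markers had higher means in HDM adipose tissue for 9 of 9 genes, with and without rats 1, of which 0 were called. The list, again with Lyz2 the brightest probe, summed to 79.7, 108, 132, 175 and 132 times the 75th percentile in HDM rats and to 79.8, 118 and 108 in control rats, with rats 1 the lowest of each group as for Alox5. The same held for the eosinophil, mast cell, platelet, adipocyte and skeletal muscle sums, so it was not particular to macrophages. The neutrophil list, with Lcn2 the brightest probe, summed to 166 in HDM rat 1, 413 in control rat 1 and 4.28 to 18.3 in the other rats, and Elane, Mmp8 and Ngp of that list were well above background in none of the 8 adipose samples. Of the 12 measured neutrophil genes, 0 were called there, 7 had higher means in HDM rats, and the median difference was 0.53. Without rats 1 it was 8 of 12, with a median of 0.093. The differences ran from 4.66 for S100a8 and 3.83 for S100a9 (adjusted p of 0.154 and 0.0853 in limma) to -1.44 for Ltf and -1.89 for Lcn2, and without rats 1 these were 4.10, 4.05, -1.64 and -1.03. The probe of Ltf was well above background in only 1 of 5 HDM and 2 of 3 control rats, so its differences are not exact. Lcn2 was at 7.33 in HDM rat 1 and 8.69 in control rat 1 and at 0.84 to 4.08 in the others. The part of these cells in the adipose signal of Alox5, Alox5ap and Ltc4s was not tested.

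Whether the response to HDM differed between the tissues was tested on within-rat differences, lung minus adipose tissue. None of the 10 genes was called, against 1 probe or 0.00219% of all probes. With an unadjusted p below 0.05 there was 1 of 10 genes (7.74% of all probes), and the methods' t-test called 0. That gene was Ltc4s, whose lung change minus adipose change was -1.08 (SE 0.45, adjusted p of 0.632 in limma). It was 1.11 (SE 0.50, adjusted p of 0.653) for Ltb4r and -0.97 (SE 0.54, adjusted p of 0.695) for Alox5. The largest was that of Alox12, 1.32 (SE 1.09, adjusted p of 0.782). Without control rat 1 it was -0.68 for Ltc4s, -0.41 for Alox5 and 0.39 for Alox12. For Ltb4r it was 0.78 without control rat 2 and -0.0047 after normexp. The changes of Alox5ap in the 2 tissues lay close together, 0.73 in lung and 0.79 in adipose tissue, and their difference was -0.055 (SE 0.49, adjusted p of 0.979). This closeness rested on single rats, with a difference of -0.33 without HDM rat 1 and of 0.38 without control rat 1, where the adipose change was 0.42.

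**Figure D4:**
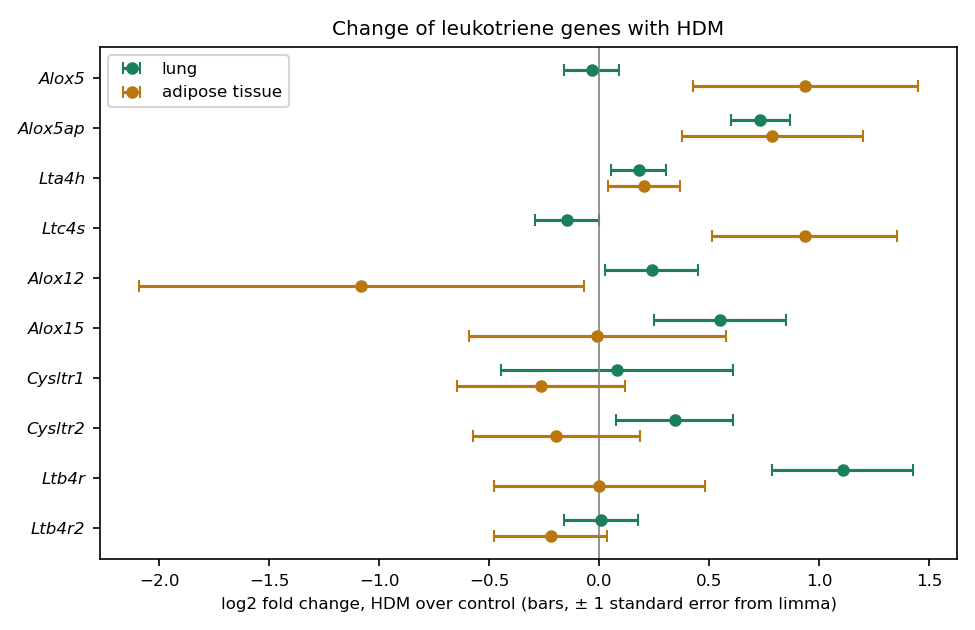
Log2 fold change of HDM over control rats (horizontal axis) with bars of 1 standard error from limma, for the 10 genes (vertical axis) in lung and adipose tissue. Alox5ap lies at 0.73 in lung and 0.79 in adipose tissue, with the shorter error bar in lung (0.13 against 0.41), and Alox5 lies at -0.033 and 0.94.

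The level of each gene was also compared between the tissues in control rats. Limma called 7 of 10 genes, 3 higher in lung and 4 lower, where 44.3% of all probes were called (12% higher, 32.2% lower). The 75th percentile was a signal of 388 to 438 on control lung arrays and of 111 to 227 on control adipose arrays. A probe with equal unscaled signal in both tissues is therefore scored lower in lung, among these genes and all probes alike. One of the 4 was Ltb4r2, which was well above background on 0 of 16 arrays. Its unscaled signals were 2.16 to 2.39 in control lungs and 2.25 to 2.59 in control adipose samples. The count was 4 without any 1 of the control rats, and all arrays of a tissue were on 1 slide, so tissue and slide cannot be told apart. Lta4h was 1.08 (SE 0.18) higher in lung than in adipose tissue, or 2.12-fold (adjusted p of 0.0022 in limma), and was higher in lung in 3 of 3 control rats and in 5 of 5 HDM rats. Alox5ap was 1.39 (SE 0.38) higher in lung, or 2.63-fold (adjusted p of 0.0196), and 0.96 higher without control rat 1 (adjusted p of 0.121). Ltc4s was the synthesis gene with less signal in lung, by -1.04 (SE 0.35) on the log2 scale or 2.06-fold (adjusted p of 0.0427), and this call was lost in 10 of 18 alternatives. These were leaving out HDM rat 2, 3 or 5 (adjusted p of 0.0566, 0.0569 and 0.0572) or control rat 2 or 3 (0.21 and 0.149), the methods' t-test (0.0715), quantile normalization (0.0759), normexp (-0.60, 0.0987) and scaling to medians (-0.79, 0.148) or to Gapdh and Hprt1 (-0.58, 0.249). The other synthesis genes were not called, with differences of 0.93 (SE 0.43, adjusted p of 0.105) for Alox5, 1.33 (SE 0.49, 0.0557) for Alox15 and 0.72 (SE 0.86, 0.506) for Alox12. These values turned on single control rats: leaving out 1 of them gave 0.37 to 1.22 for Alox5, 0.63 to 1.84 for Alox15 and 0.032 to 1.65 for Alox12, with the value without control rat 1 the lowest for Alox5 and Alox15 and the highest for Alox12. Alox15 was called in 4 of 18 alternatives, with medians (adjusted p of 0.0413), with the percentile over probes well above background (0.0453), with Gapdh and Hprt1 (0.0276) and without control rat 3 (0.0352). Alox5 was called with Gapdh and Hprt1 (1.39, 0.0488) and Alox12 without both rats 1 (0.0189). Without control rat 1, no control adipose array was well above background for Alox12, so its differences there are not exact.

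The receptors included in that count were near the background. Cysltr1 was called lower in lung on the scaled values (adjusted p of 0.0126 in limma). No control lung array was well above background for it, and 2 of 3 control adipose arrays were. Its unscaled signals overlapped, with control lungs at 4.41 to 10.5 and control adipose samples at 6.90 to 13.6. The bound on its fold, 3.26, holds only for the scaled values and is not a minimum for the tissue difference. This bound sets the mean of the adipose arrays against the lowest signal that Feature Extraction placed well above background on each lung array, or the signal of the probe where that was higher. The Cysltr1 call was lost without control rat 1 (adjusted p of 0.0713), without control rat 3 (0.0621), without both rats 1 (0.0943) and with normexp, where the difference was -0.16 (0.142). Cysltr2 was well above background in 3 of 3 control lungs and in 0 of 3 control adipose samples (adjusted p of 0.0462), and the bound allowed no fold above 1. Its call was lost in 9 of 18 alternatives, among them the methods' t-test (0.0763), normexp (difference of 0.22) and leaving out HDM rat 1, 4 or 5 (0.0549, 0.0638 and 0.0645) or control rat 1, 2 or 3 (0.0921, 0.0828 and 0.219). For Ltb4r the size of the difference is not exact, because only 2 of 3 lung and 1 of 3 adipose control arrays were well above background. Ltb4r was called lower in lung (-1.38 on the log2 scale, adjusted p of 0.0225). That call was lost in 6 of 18 alternatives, with quantile normalization (-0.90, adjusted p of 0.190), medians (0.0615), Gapdh and Hprt1 (0.1), normexp (-0.12, 0.531) and without control rat 2 (0.131) or 3 (0.0903). No fold is given for Ltb4r2.

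Across the 4 groups, the order of Alox5ap was lung of HDM rats (1.79 ± 0.18, SD, n = 5), lung of control rats (1.06 ± 0.13, n = 3), adipose tissue of HDM rats (0.45 ± 0.60, n = 5) and adipose tissue of control rats (-0.34 ± 0.64, n = 3). The lung groups did not overlap, while the adipose groups overlapped each other and the adipose tissue of HDM rats overlapped the lungs of control rats. For Lta4h the lung groups (3.91 ± 0.15 and 3.73 ± 0.14) overlapped each other, as did the adipose groups (2.85 ± 0.19 and 2.65 ± 0.025), and every lung sample was above every adipose sample. For Alox5 the adipose tissue of HDM rats (2.66 ± 0.76), the lungs of control rats (2.65 ± 0.19) and the lungs of HDM rats (2.62 ± 0.12) were within their spread, with the adipose tissue of control rats lowest (1.72 ± 0.82).

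The region before the start of 7 of the 10 genes was given by RefSeq for GRCr8, as 250 bases before to 50 bases after the start. It was searched on both strands for 4 short motifs. The GC box GGGCGG, bound by Sp1, was found in 33.1% of all 33469 such regions, the PU.1 core GAGGAA in 27.6%, the C/EBP motif TTGCNNAA in 10.6% and the STAT6 motif, TTC and GAA with 4 bases between, in 7.3%. The windows below are shown because Ltb4r separated the groups in lung and Alox5 and Lta4h did so in adipose tissue without rats 1. Each is written on the strand of its gene with the motif in capitals, and a motif on the opposite strand appears as its reverse complement.
Ltb4r, PU.1 core, 130 bases before the start, chr15:33232982-33233003 (+): aaagagtcTTCCTCccttctgg
Alox5, GC box, 61 bases before the start, chr4:151251174-151251195 (-): cggtctctGGGCGGggccagac
Lta4h, GC box, 135 bases before the start, chr7:29856728-29856749 (+): tccgcgcaCCGCCCcccaatcc
Lta4h, PU.1 core, 147 bases before the start, chr7:29856716-29856737 (+): cccttcggTTCCTCcgcgcacc
The Lta4h windows overlap. The Ltb4r region held 2 PU.1 core matches, of which the window shown is the one that lies wholly before the start. The region of Alox12 held 3 GC boxes and that of Cysltr2 held 1 STAT6 match, while those of Ltc4s and Ltb4r2 held none of the 4 motifs and no C/EBP match stood in any of the 7. The region given for Ltc4s, chr10:35063545-35063844 (-), lay inside the locus printed above and not at its outer end. The GC share of the Alox5 region was 61.7% and that of Cysltr2 was 45.7%, against a median of 51.7% over all regions. A match of letters is not a binding site, and no binding was measured here.

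A wider list of 41 genes around the pathway was examined, of which 37 had a probe. In lung 1 of 37 was called (0.855% of all probes), and it belonged to the breakdown of LTB4. Cyp4f18, a cytochrome P450 of the family that hydroxylates and so inactivates LTB4, had a lung signal of -0.60, -1.05, -0.91, -0.59 and -1.12 in HDM rats and -1.77, -2.83 and -2.94 in control rats. All HDM rats were above all control rats, and the difference was 1.66 (SE 0.28) or 3.16-fold, with an adjusted p of 0.0478 in limma and an exact permutation p of 0.0179. The call was close to the threshold. It was lost in 14 of 24 alternatives (adjusted p of 0.00454 to 0.594), among them leaving out any 1 rat other than control rat 1, with adjusted p of 0.132, 0.106, 0.0854, 0.0901 and 0.0915 without HDM rats 1 to 5 and 0.209 and 0.168 without control rats 2 and 3. With the slide row as a block the difference was 1.39 (adjusted p of 0.594), and within row 2 HDM rat 5 (-1.12) was above the control rats. The neutrophil sums given above also separated the groups, and their part in the signal of Cyp4f18 was not tested.

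No other gene of the wider list was called in lung. Among phospholipases, the cytosolic enzyme Pla2g4a, which frees arachidonic acid for leukotriene synthesis, differed by 0.27 (adjusted p of 0.482) with groups that did not overlap, and Pla2g6 by -0.21 (adjusted p of 0.663). Aloxe3, a lipoxygenase of the epidermis, differed by -0.34 (adjusted p of 0.381) with the HDM rats lower and apart. Alox12e, an epidermal 12-lipoxygenase, had the next largest difference, 1.39 (SE 0.41, adjusted p of 0.233), with HDM rats at -0.48 to 0.52 and control rats at -2.14 to -0.37, so that control rat 1 overlapped. Of the enzymes that trim LTC4 to LTD4 and LTE4, Ggt1 differed by 0.27 (adjusted p of 0.440) and Dpep1 by -0.35 (adjusted p of 0.213), both with groups apart. The exporter Abcc4 differed by -0.51 (adjusted p of 0.381) and the chemerin and resolvin receptor Cmklr1 by -0.74 (adjusted p of 0.097), both with all HDM rats below all control rats. Cmklr1 was called in 6 other settings, at adjusted p of 0.0106 to 0.0443, among them without HDM rat 4 and with array weights, where Cyp4f18 was not. In all, 3 of 37 genes had HDM rats above the control rats (4.65% of all probes) and 5 of 37 had them below (4.97%), and the median difference was -0.0093 against 0.0028 over all probes.

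In adipose tissue 0 of 37 genes were called in limma, 2 passed an unadjusted p below 0.05 (Gpr31 and Gpr18; 9.9% of all probes) and the methods' t-test called 0. Gpr18, a receptor of lipid mediators, was the 1 gene of 37 whose groups did not overlap (6.26% of all probes, 1.54% higher), with a difference of 0.61 (SE 0.21, adjusted p of 0.421). The largest differences were those of Cyp4f4, -3.15 (SE 2.10), and Ggt1, -2.62 (SE 2.76), with adjusted p of 0.692 and 0.820, and without rats 1 they were -2.82 and -2.41. Each of these probes was well above background in only 2 of 5 HDM and 2 of 3 control rats, so the sizes are not exact. Ggt1 was at 4.53 in HDM rat 1 and 3.69 in control rat 1, -0.76 in control rat 3 and between -6.51 and -3.73 in the other rats, so its high samples were those high on the epididymis list. Leaving out control rat 1 alone changed the difference of Ggt1 to -0.49 and that of Cyp4f4 to -1.89, and leaving out control rat 2 changed them to -4.65 and -5.58. Cyp4f4 was at 1.24 and 1.10 in control rats 1 and 3, at -0.69 in HDM rat 1 and at -2.30 in HDM rat 5, with the others between -6.74 and -5.90. The rats named here for Cyp4f4 also had the highest sums on the epididymis list. The median of the list was -0.11 against -0.15 over all probes.

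**Figure D5:**
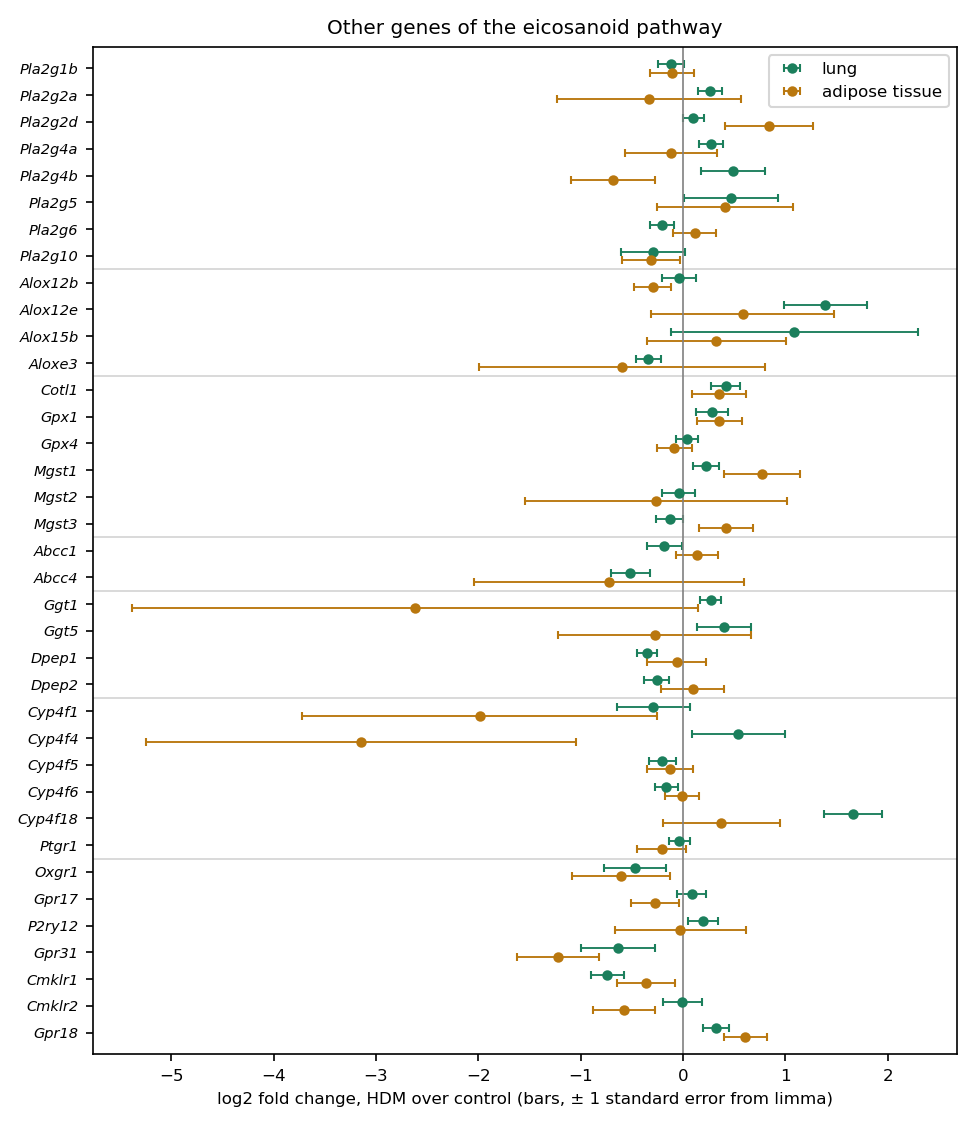
Log2 fold change of HDM over control rats (horizontal axis) with bars of 1 standard error from limma for the 37 further genes of the pathway (vertical axis, grey lines between the functional groups) in lung and adipose tissue. Cyp4f18 stands at 1.66 in lung, and the widest error bars are those of Ggt1 (2.76) and Cyp4f4 (2.10) in adipose tissue.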

How the data were processed

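Values came from 16 arrays scanned and extracted by the authors with Agilent Feature Extraction 12.0.3.1. The authors deposited the background-subtracted spot intensity of each array, not log-transformed, and a table of log2 values from GeneSpring, whose values lay within 0.1 of the shifted and probe-centered intensities in 99.97% of lung and 99.85% of adipose cells. That table was used only as an alternative, and 39 of its cells hold a month in place of a value.

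Control probes and outlier spots were left out, spots of a probe were averaged as log2 intensity, and the 75th percentile of each array was subtracted. HDM and control rats were compared per tissue with limma 3.58.1 in R 4.3.3. Single values were tested by exact permutation. Differences between tissues were tested on within-rat differences. The methods of the study name a t-test, run as an alternative, with other normalizations, background correction, filters, blocks and rats left out. That t-test was adjusted across all probes, without a fold-change cut before the adjustment. Of 45598 probes, 21229 had a symbol through a GRCr8 gene table. Promoter sequences were from RefSeq. The code was tested on simulated data.

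The 10 genes and all lists were chosen with earlier results of these data known. Named were all 10 genes, wider genes called or with the 2 largest changes per tissue among those well above background on at least 3 arrays, and the most abundant and undetected markers. Wider genes with separated groups, Gpr31, and the marker genes given with differences were named after their values were seen. Genes patterned like a called member were to be named, and no member was called. No probe sequence was used here.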

Additional observations from a re-analysis of the deposited data

Results flagged for a closer look

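In 3 of 24 groups of 5 rats examined (the 10 genes and the 2 named wider genes in each tissue), 1 rat lay far from the others by Dixon's test, and chance alone gives about 1 in 20. Alox5 in adipose tissue was at 1.33 in HDM rat 1, with a gap of 0.73 of the range of the group. Ggt1 in adipose tissue was at 4.53 in the same rat, with a gap of 0.748 of the range. That rat stood apart on the epididymis list with a sum of 3827. Ltb4r2 in adipose tissue was at -5.69 in HDM rat 2, with a gap of 0.711 of the range, where 0 of 8 arrays were well above background, and that array had 1224 outlier spots against 355 to 444 on the other adipose arrays.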

How the results depend on the processing

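In adipose tissue 0 of the 10 genes and 0 of the 37 wider genes were called in all 25 alternatives, and 0 genes differed in their response between tissues in all 19. In lung 18 of 24 alternatives also called 0 of the 10. The count was 1, Alox5ap, after quantile normalization (adjusted p of 0.0316), with the 75th percentile taken over probes well above background (0.0459), after normexp with quantile normalization (0.00694), without dim probes (0.0222) and with array weights (0.0342). It was 2, Alox5ap (0.00578) and Ltb4r (0.0334), when only probes past 1.5-fold were adjusted. Leaving out 1 rat gave 0 each time. Alox5ap, Lta4h, Alox12, Alox15 and Ltb4r kept a positive lung difference in every alternative. The wider count in lung was 0 with arrays scaled to their medians or to Gapdh and Hprt1, with the t-test, with the replicate or row block and in the joint fit of both tissues. It was 2 with normexp, without dim probes and with the mean of all probes of a gene, 3 with adjustment past 1.5-fold, and 0 to 1 with 1 rat left out. Cyp4f18 and Cmklr1 made up each count of 2, Alox12e joined them in the count of 3, and Cmklr1 alone made up the count of 1 with array weights and without HDM rat 4. The count of genes that differed between tissues in control rats fell from 7 to 4 after quantile normalization and 2 after normexp, rose to 8 with the percentile over probes well above background, and was 4 to 6 with 1 rat left out. The cause of these moves was not tested. Fewer tests were adjusted without dim probes, past 1.5-fold and with the mean of all probes of a gene.

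In lung the replicate numbers shared by HDM and control rats did not pair the samples: the deviations of same-numbered arrays correlated at -0.06, -0.078 and 0.046. In adipose tissue they correlated at 0.59 for rats 1, both high on the epididymis list, and at 0.14 and 0.097 for rats 2 and 3. The best match there had the same number for 1 of 3 control rats and for 2 of HDM rats 1 to 3, against 0 and 1 in lung. With the replicate block 0 of the 10 genes and 0 of all probes were called in each tissue, and it turned Cysltr1 in lung (-0.048) and Cysltr2 in adipose tissue (0.0053). Without the within-rat pairing of tissues, the count of genes with a different response stayed 0.

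Signs turned for genes near 0 or near background. In lung, Alox5 was 0.0031 with the percentile over probes above background, 0.0397 with normexp and 0.013 with quantile normalization, and -0.13 to 0.061 with 1 rat left out. Cysltr1 was -0.15 with array weights and -0.31 to 0.37 with 1 rat left out, Cysltr2 -0.22 with the row block, and Ltb4r2 -0.011 with Gapdh and Hprt1, -0.044 with medians, -0.0072 with normexp, -0.17 with the row block and -0.089 to 0.071 with 1 rat left out. The other lung ranges with 1 rat left out were 0.68 to 0.80 for Alox5ap, 0.12 to 0.26 for Lta4h, -0.23 to -0.096 for Ltc4s, 0.14 to 0.38 for Alox12, 0.35 to 0.79 for Alox15, 0.19 to 0.48 for Cysltr2 and 0.68 to 1.44 for Ltb4r. In adipose tissue, array weights gave 0.10 for Alox15, 0.25 for Cysltr1 and 0.31 for Ltb4r, and the row block gave 0.19 for Alox15 and 0.016 for Ltb4r. Without both rats 1, Cysltr1 was 0.15 and Ltb4r 0.12. Medians gave 0.29 for Alox15, 0.032 for Cysltr1, 0.10 for Cysltr2, 0.29 for Ltb4r and 0.0745 for Ltb4r2. Normexp gave 0.095, 0.044, 0.022 and 0.089 for Alox15, Cysltr1, Cysltr2 and Ltb4r. Quantile normalization gave 0.12, 0.19, 0.22, 0.35 and 0.18 for Alox15, Cysltr1, Cysltr2, Ltb4r and Ltb4r2. With 1 rat left out the adipose ranges were -0.46 to 0.37 for Alox15, -0.50 to 0.16 for Cysltr1, -0.53 to 0.051 for Cysltr2 and -0.31 to 0.23 for Ltb4r, and without a change of sign 0.47 to 1.27 for Alox5, 0.42 to 1.03 for Alox5ap, 0.56 to 1.23 for Ltc4s and -1.84 to -0.049 for Alox12.

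For the lung change minus the adipose change, the percentile over probes above background gave 0.042 for Alox5ap and 0.072 for Lta4h, medians gave -0.002 for Cysltr1 and -0.12 for Ltb4r2, and leaving out both rats 1 gave 0.10 for Alox5ap. Normexp gave 0.039, 0.081, -0.041 and -0.0047 for Alox5ap, Lta4h, Cysltr1 and Ltb4r. Quantile normalization gave 0.0037, 0.078, -0.13, -0.059 and -0.25 for Alox5ap, Lta4h, Cysltr1, Cysltr2 and Ltb4r2. With 1 rat left out the ranges were -0.33 to 0.38 for Alox5ap, -0.11 to 0.045 for Lta4h, -1.28 to -0.41 for Alox5 and -1.36 to -0.68 for Ltc4s.

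Other settings moved the number of called probes in lung from 390 to between 0 (replicate block) and 1329 (adjustment past 1.5-fold), with 25 under the row block, 100 without control rat 2, 125 without control rat 1, 161 without HDM rat 2 and 163 without HDM rat 1. In adipose tissue it rose from 0 to 338 with array weights, 106 in the joint fit and 28 with adjustment past 1.5-fold. Dim signal limits the receptors, and Alox12 in adipose tissue: Cysltr1, Ltb4r and Ltb4r2 were not well above background on every lung array, nor any receptor on every adipose array.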
